A study of Mus musculus with 4 samples.

Results

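The 9 genes described here, Etnk1, Etnk2, Chka, Chkb, Pcyt1a, Pcyt2, Cept1, Chpt1 and Pemt, encode enzymes that make phosphatidylethanolamine and phosphatidylcholine from ethanolamine and choline. They were chosen by symbol, as genes of one pathway, and all 9 were found among the 22722 genes counted. The family was picked with earlier results of these same libraries known, in which Etnk1 stood among the genes with the smallest p, so the difference of Etnk1 between the groups is given as a description and supports nothing.

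Reads were counted per gene in MPC11, a mouse tumour line of antibody-secreting plasma cells (a plasmacytoma), grown as 4 cultures. Of these, 2 carried a lentiviral pLKO.1 hairpin against Ell2, whose product speeds transcript elongation by RNA polymerase II (Ell2-KD, hairpin 1C7), and 2 carried the same vector with a hairpin against GFP, which mouse cells lack (shGFP). All cultures were exposed to virus for 18 h, selected in puromycin for 72 h and expanded for another 72 h. Only 1 hairpin against Ell2 was used, so effects of that hairpin on other transcripts cannot be told apart from those of losing Ell2, and the labels do not say whether the replicates were transduced separately. The p-values therefore measure the spread between these samples, which may be technical.

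Phosphatidylcholine and phosphatidylethanolamine are the most abundant phospholipids of animal membranes. In the Kennedy pathway a kinase phosphorylates choline or ethanolamine, a CTP transferase turns the product into its CDP form, and a phosphotransferase passes the head group to diacylglycerol; in a separate route, Pemt methylates phosphatidylethanolamine to phosphatidylcholine. B cells that become plasma cells enlarge their endoplasmic reticulum, whose membrane is made largely of these lipids.

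The 250 bases before the RefSeq start of the 2 ethanolamine kinase genes are shown because Etnk1 was the most abundant of the 9 genes and Etnk2 was close to undetected. Capitals mark CG dinucleotides, the sequences run 5′ to 3′ and the build is GRCm38.p6, which is not the build mm9 that the submitters' processing notes name. The Etnk1 window lies at chr6:143166980-143167229 and the Etnk2 window at chr1:133363322-133363571, both on the plus strand.
Etnk1: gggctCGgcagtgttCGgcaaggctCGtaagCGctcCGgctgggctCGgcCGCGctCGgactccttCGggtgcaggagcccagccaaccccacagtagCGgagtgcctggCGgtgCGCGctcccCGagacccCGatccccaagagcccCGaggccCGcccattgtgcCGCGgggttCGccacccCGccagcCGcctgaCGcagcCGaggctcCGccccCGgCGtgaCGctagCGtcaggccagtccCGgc
Etnk2: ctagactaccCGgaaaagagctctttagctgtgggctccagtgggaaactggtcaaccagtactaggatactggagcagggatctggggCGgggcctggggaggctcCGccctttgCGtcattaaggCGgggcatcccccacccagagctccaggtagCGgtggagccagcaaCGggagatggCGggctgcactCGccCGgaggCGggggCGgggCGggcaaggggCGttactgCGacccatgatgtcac
The Etnk1 window held 31 CG dinucleotides, a number reached by 5.19% of 32841 RefSeq promoter windows of this length, and the Etnk2 window held 15, reached by 27.3%. The median window held 6. Of the 9 genes, 8 had an entry, some with several start sites. CG counts were 24 for Chka, 23 for Chpt1, 28, 27 and 14 at the 3 starts of Pcyt1a, and 20, 21 and 0 at those of Cept1. Chkb was also close to undetected, but 50.7% of its exon bases are shared with another gene on the same strand. How shared reads were counted is not known. The Chkb window held 12 CG dinucleotides, and the 2 starts of Pemt held 2 and 1. These are descriptions of the reference sequence, not measurements of promoter activity.

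The libraries held 13914488 and 3496471 counts for Ell2-KD replicates 1 and 2, and 8323915 and 5088789 for shGFP replicates 1 and 2. Ell2 stood at 87.8 and 115 CPM in Ell2-KD and at 938 and 996 CPM in shGFP, where CPM are counts relative to the library total, on the usual CPM scale, after TMM scaling of the libraries. Levels in bulk RNA do not tell fewer cells expressing a gene from less RNA per cell. The 8 plasma cell markers were all detected and summed to 17536 and 13812 CPM of all counts in Ell2-KD, against 21553 and 16541 CPM in shGFP. All but Xbp1, 7 of the 8, were lower in both Ell2-KD libraries than in either shGFP library, as were 18.5% of all genes tested, and none passed over all genes. The 3 at an unadjusted p under 0.05, named after their values were seen, were Pou2af1, Sdc1 and Tnfrsf17. Of all genes tested, 3.26% were lower in Ell2-KD at that level. Pou2af1 stood at 622 and 476 CPM in Ell2-KD and 1125 and 905 CPM in shGFP, Sdc1 at 478 and 347 CPM in Ell2-KD and 784 and 648 CPM in shGFP, and Tnfrsf17 at 1.28 and 0.293 CPM in Ell2-KD and 19.0 and 25.003 CPM in shGFP. Of the B cell markers, Ms4a1 stood at 836 and 941 CPM in Ell2-KD and 378 and 348 CPM in shGFP, while Pax5 had 0 and 0 counts in Ell2-KD and 30 and 1 counts in shGFP. Markers of fibroblasts and epithelia summed to 455 and 590 CPM in Ell2-KD and 495 and 631 CPM in shGFP, almost all from Epcam. Sums over T and NK cell, myeloid and erythroid markers reached at most 35.2 CPM in any library, and Hbb-b1 was at 0 in all. The part of these markers in the differences below was not tested.

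Of the 9 genes, 7 had enough counts to be tested, and the other 2, Etnk2 and Chkb, did not. No tested member passed edgeR's quasi-likelihood test of Ell2-KD against shGFP, where 0.0453% of the 11027 genes tested passed at an adjusted p under 0.05. At an unadjusted p under 0.05, 1 member was higher, Etnk1, and none was lower, while 2.57% of all tested genes were higher and 3.26% lower at that level. A DESeq2 Wald test also called no member at an adjusted p under 0.05. Both Ell2-KD libraries lay above both shGFP libraries for 3 members, Etnk1, Pcyt1a and Chpt1, and below them for none, against 17.4% and 18.5% of all tested genes. The other 4 members overlapped between groups. Log2 fold changes were positive for 4 and negative for 3 of the 7, where 49.9% of all genes tested were positive. Their median was 0.31, against -0.00 over all genes tested. Since the members were chosen with this contrast known, nothing is read from these counts.

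**Figure D1:**
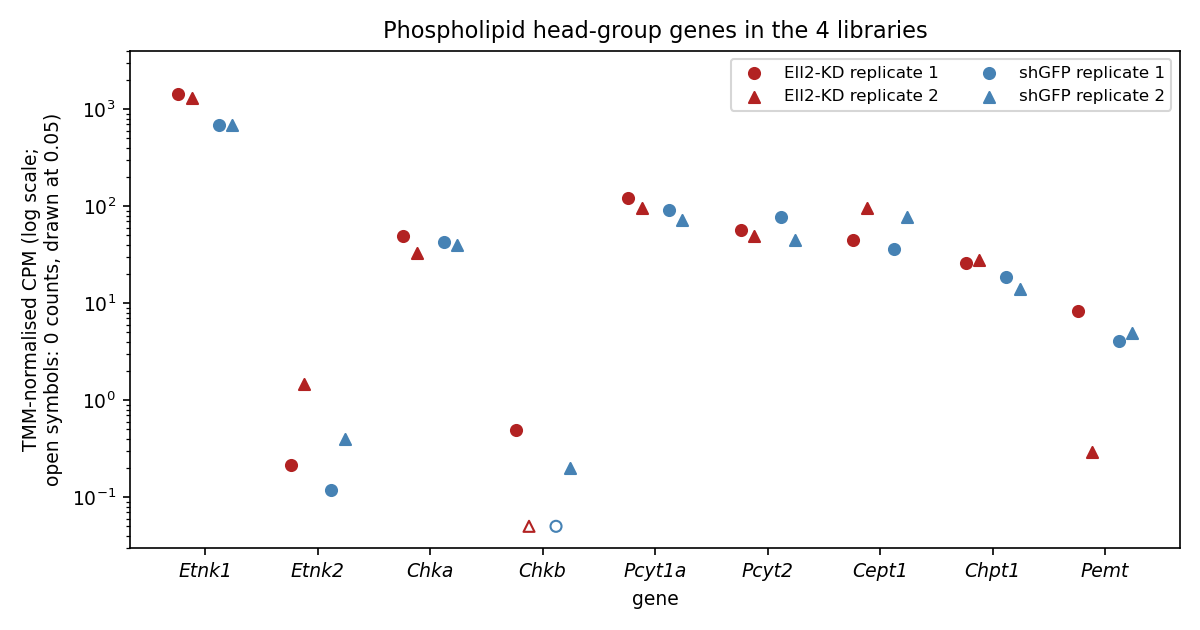
TMM-normalised CPM (log axis) of each of the 9 genes in the 2 Ell2-KD and 2 shGFP libraries; each symbol is 1 library, and open symbols stand for 0 counts. Etnk1 sits at 1315 CPM or above in Ell2-KD and at 685 CPM or below in shGFP, while Etnk2 and Chkb lie below 2 CPM throughout.

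The ethanolamine kinase Etnk1, which phosphorylates ethanolamine at the entry of the phosphatidylethanolamine branch, was the most abundant member and the one that differed most. It had 20271 and 4492 counts in Ell2-KD and 5744 and 3432 counts in shGFP, or 1438 and 1315 CPM in Ell2-KD and 685 and 681 CPM in shGFP. Both Ell2-KD libraries were well above both shGFP libraries, and the 2 shGFP libraries were nearly the same. Etnk1 averaged 1376.5 ± 86.9 CPM in Ell2-KD and 683 ± 2.76 CPM in shGFP (SD, n = 2 each), which is 2.02-fold higher in Ell2-KD. The log2 fold change was 1.01 ± 0.19 (SE), with a 95% interval from 0.60 to 1.43 that takes no account of the choice of the gene. Set by replicate number, the difference was 1.07 between the replicate 1 libraries and 0.95 between the replicate 2 libraries on the log2 CPM scale. With any 1 library left out, the log2 change stayed between 0.95 and 1.07. Etnk1 ranked 11 by p among the 11027 genes tested without passing over all of them. In the GENCODE M21 annotation an antisense transcript, 1700126G02Rik, overlaps 1.42% of its exon bases, and without a stated strand setting its reads could not be told from those of Etnk1.

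Etnk2, the second ethanolamine kinase, had 3 and 5 counts in Ell2-KD and 1 and 2 counts in shGFP. These are 0.216 and 1.43 CPM of all counts in Ell2-KD and 0.120 and 0.393 CPM in shGFP. The exact 95% binomial intervals ran from 0.0445 to 0.630 and from 0.464 to 3.34 CPM in Ell2-KD, and from 0.00304 to 0.669 and from 0.0476 to 1.42 CPM in shGFP. The intervals overlapped between groups, which is not a test of a difference. Etnk2 had too few counts to be tested, and such intervals cover counting error only. Per kilobase of annotated exons, Etnk1 made up 99.954% and 99.656% of the counts of both ethanolamine kinases in Ell2-KD and 99.946% and 99.82% in shGFP.

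Chka and Chkb encode the choline kinases, which also accept ethanolamine. Chka had 691 and 113 counts in Ell2-KD and 358 and 202 counts in shGFP, or 49.0 and 33.1 CPM in Ell2-KD and 42.7 and 40.1 CPM in shGFP. The Ell2-KD libraries lay on either side of the shGFP libraries. The log2 change was -0.01 ± 0.38 (SE), with a 95% interval from -0.83 to 0.82 and no constant sign: it was -0.32 without Ell2-KD replicate 1, 0.24 without Ell2-KD replicate 2 and 0.05 without shGFP replicate 1. Chkb had 7 and 0 counts in Ell2-KD and 0 and 1 counts in shGFP. With 3 counts taken as the limit that a count of 0 allows, Chkb could reach 0.858 CPM in Ell2-KD replicate 2 and 0.360 CPM in shGFP replicate 1; the exact 95% binomial intervals for these 0 counts end at 1.055 and 0.443 CPM. In GENCODE M21, 50.7% of its exon bases are shared with Gm44502, a transcript on the same strand that runs on into Cpt1b, and how the authors' counting assigned reads shared by such genes is not given in the sources used here.

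The CTP transferases take the next step. Pcyt1a, the phosphocholine form and the regulated step of phosphatidylcholine synthesis, had 1722 and 326 counts in Ell2-KD and 772 and 366 counts in shGFP. That is 122 and 95.4 CPM in Ell2-KD and 92.1 and 72.6 CPM in shGFP, so the groups were separated only by the narrow gap between Ell2-KD replicate 2 and shGFP replicate 1. Its log2 change was 0.40 ± 0.29 (SE, 95% interval -0.25 to 1.05), and 0.41 and 0.39 within replicate numbers 1 and 2. It ranged from 0.22 without Ell2-KD replicate 1 to 0.60 without shGFP replicate 1. In GENCODE M21, exons of Slc51a on the other strand overlap 7.65% of its exon bases.

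Pcyt2, the phosphoethanolamine form and the step after Etnk1, had 804 and 170 counts in Ell2-KD and 644 and 228 counts in shGFP, or 57.0 and 49.8 CPM in Ell2-KD and 76.8 and 45.2 CPM in shGFP. Both Ell2-KD values lay between the 2 shGFP values. The log2 change was -0.19 ± 0.35 (SE, 95% interval -0.97 to 0.59), and its sign turned to 0.25 without shGFP replicate 1. Count ratios between steps were chosen after the values were seen. The ratio of Etnk1 to Pcyt2 counts was 25.2 and 26.4 in Ell2-KD and 8.92 and 15.1 in shGFP. The ratio of Pcyt1a to Pcyt2 counts was 2.14 and 1.92 in Ell2-KD and 1.20 and 1.61 in shGFP. Both ratios were higher in both Ell2-KD libraries than in either shGFP library. The ratio of Chka to Pcyt1a counts ran the other way, at 0.401 and 0.347 in Ell2-KD and 0.464 and 0.552 in shGFP. That of Cept1 to Chpt1 counts overlapped between the groups, at 1.73 and 3.47 in Ell2-KD and 1.95 and 5.52 in shGFP. Per kilobase, Pcyt1a made up 54.3% ± 1.94 of both CTP transferases in Ell2-KD and 44.9% ± 5.10 in shGFP (SD, n = 2 each). Shares and ratios are descriptions and were not tested. How often ratios of other gene pairs separate the groups was not determined. The ratio of Etnk1 to Pcyt2 also carries the difference of Etnk1 itself.

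The last step is taken by Cept1, which uses both head groups, and Chpt1, which uses choline. Cept1 had 638 and 330 counts in Ell2-KD and 306 and 392 counts in shGFP, or 45.3 and 96.6 CPM in Ell2-KD and 36.5 and 77.8 CPM in shGFP. In each group the replicate 2 library was above the replicate 1 library by a like factor, and this spread was wider than the difference between the groups. Its log2 change was 0.31 ± 0.45 (SE, 95% interval -0.70 to 1.31), and 0.31 within each replicate number, but -0.13 with shGFP replicate 1 left out and -0.33 with Ell2-KD replicate 2 left out. Exons of Dennd2d on the other strand overlap 24.7% of its exon bases in GENCODE M21.

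Chpt1 had 369 and 95 counts in Ell2-KD and 157 and 71 counts in shGFP, or 26.2 and 27.8 CPM in Ell2-KD and 18.7 and 14.1 CPM in shGFP. Both Ell2-KD libraries were above both shGFP libraries. The mean was 27.0 ± 1.16 CPM in Ell2-KD and 16.4 ± 3.28 CPM in shGFP (SD, n = 2 each), with a log2 change of 0.71 ± 0.47 (SE, 95% interval -0.31 to 1.74). With any 1 library left out the change stayed positive, from 0.53 without shGFP replicate 2 to 0.95 without shGFP replicate 1, and it did not pass in any of these. Exons of Sycp3 on the other strand overlap 7.93% of its exon bases in GENCODE M21. Cept1 made up 86.2% ± 5.71 of Cept1 plus Chpt1 per kilobase in Ell2-KD and 88.8% ± 6.90 in shGFP (SD, n = 2 each). Ept1 is not part of this share.

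Pemt, the methyltransferase that is known mainly from liver, had 116 and 1 counts in Ell2-KD and 34 and 25 counts in shGFP, or 8.23 and 0.293 CPM in Ell2-KD and 4.05 and 4.96 CPM in shGFP. The 2 Ell2-KD libraries were thus the highest and the lowest of the 4. The exact 95% binomial interval of Ell2-KD replicate 2 ended at 1.59 CPM of all counts. Those of Ell2-KD replicate 1 and of shGFP replicates 1 and 2 began at 6.89, 2.83 and 3.18 CPM. Such intervals cover counting error only, and the cause of the spread was not tested. The log2 change was -0.02 ± 1.27 (SE, 95% interval -2.82 to 2.78), -3.84 without Ell2-KD replicate 1 and 0.87 without Ell2-KD replicate 2, and no direction can be given.

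**Figure D2:**
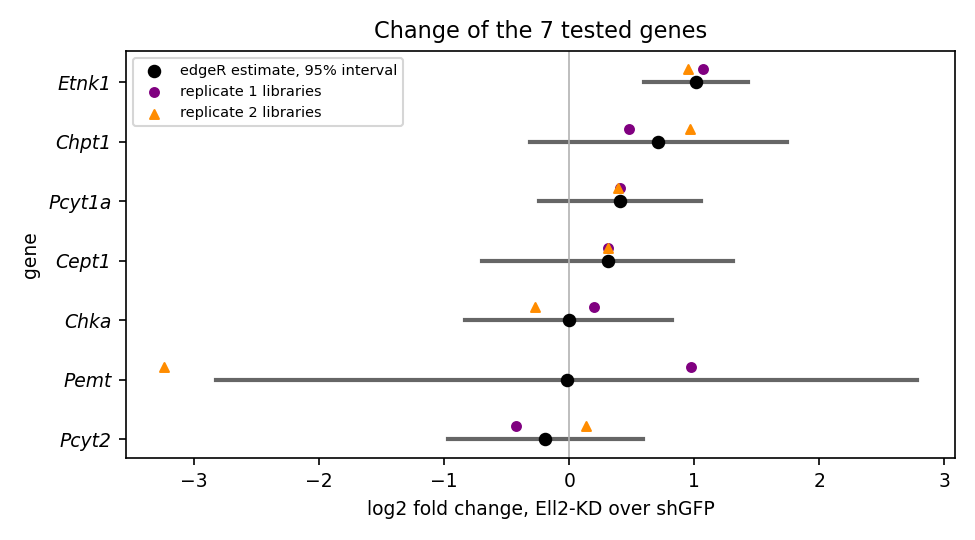
Log2 fold change of Ell2-KD over shGFP for the 7 tested members; black points are edgeR estimates with 95% intervals, and coloured symbols are differences of log2 CPM within replicate numbers 1 and 2. The interval of Etnk1 runs from 0.60 to 1.43, those of the other 6 include 0, and the symbols of Pemt lie farthest apart, at 0.98 and -3.24.

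Apart from Etnk1, the edgeR adjusted p of the tested members was 0.916 or above, and each of their 95% intervals included 0. The intervals of Pemt, Chpt1, Cept1 and Pcyt1a reach 2.78, 1.74, 1.31 and 1.05 on the log2 scale, so a change as large as that of Etnk1 lies within them.

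To compare levels between genes, CPM were divided by the kilobases of annotated exons. Etnk1 was highest at 97.3 ± 6.14 CPM per kilobase in Ell2-KD and 48.3 ± 0.195 in shGFP (SD, n = 2 each). Its mean over all libraries of both groups was above that of 96.5% of 17841 genes with a length and a count. No such place was computed for shGFP alone. Cept1 came next at 22.8 ± 11.7 in Ell2-KD and 18.3 ± 9.37 in shGFP, with Pcyt2 at 12.3 ± 1.18 and 14.0 ± 5.13 and Pcyt1a at 14.7 ± 2.55 and 11.1 ± 1.85, each with Ell2-KD before shGFP. The values of these 3 genes overlapped in shGFP and did not differ beyond their spread. Chka at 3.41 ± 0.937 in Ell2-KD and 3.44 ± 0.153 in shGFP, Chpt1 at 3.24 ± 0.139 and 1.97 ± 0.394, and Pemt at 2.02 ± 2.67 and 2.14 ± 0.305 formed a lower tier whose values also overlapped in Ell2-KD. Etnk2 and Chkb averaged under 0.2 CPM per kilobase in both groups. Annotated exons can exceed the transcript that the cells make, which lowers the level per kilobase of genes with long alternative ends.

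Summed over the 9 genes, the level was 157 and 155 CPM per kilobase in Ell2-KD and 98.0 and 101 in shGFP. Etnk1 alone supplied 64.7% and 60.0% of this sum in Ell2-KD and 49.4% and 47.7% in shGFP. Without Etnk1 the sum of the other 8 was 55.5 and 61.9 in Ell2-KD and 49.6 and 52.7 in shGFP. Most of the difference between the groups in the sum was therefore that of Etnk1.

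**Figure D3:**
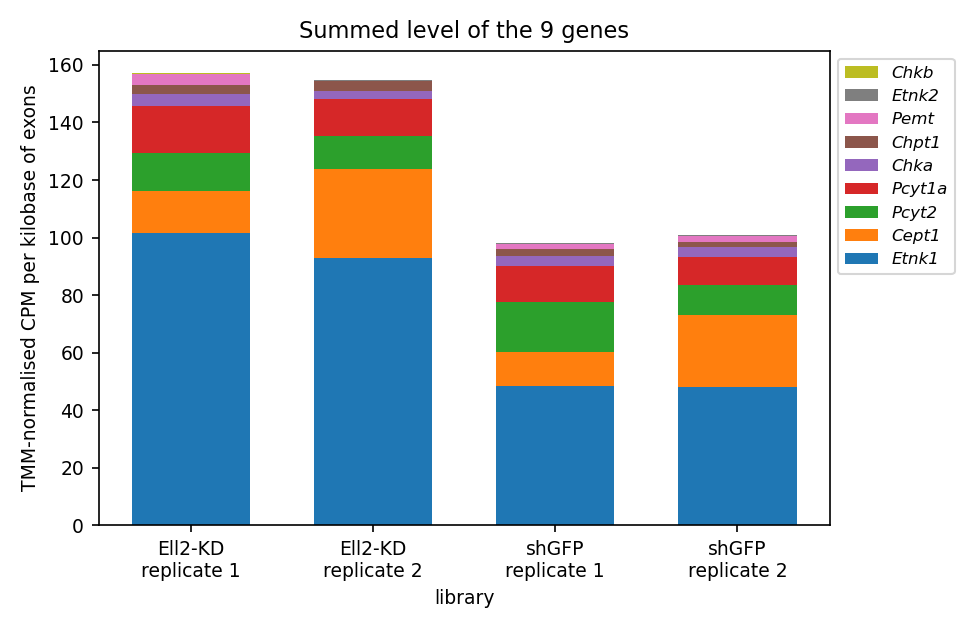
TMM-normalised CPM per kilobase of annotated exons, stacked by gene, for the 2 Ell2-KD and 2 shGFP libraries. The stacks reach 157 and 155 in Ell2-KD and 98.0 and 101 in shGFP, and the Etnk1 block is 102 and 92.9 in Ell2-KD and 48.4 and 48.1 in shGFP.

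Among tested genes with a mean of at least 5 CPM, 9427 in number, the profiles over the 4 libraries nearest to that of Etnk1 were those of Gtf3a, Rcl1 and Pdrg1. Nearness was the root mean square difference of centred log2 CPM, which was 0.04, 0.04 and 0.06, and 128 genes lay within 0.2. Nearest to Chpt1, the member with the next smallest p, were Stau1, Ppp4r2 and G3bp2, at 0.04, 0.06 and 0.06, with 345 genes within 0.2. With 4 libraries many genes have a similar profile, and these are listed as a description.

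**Figure D4:**
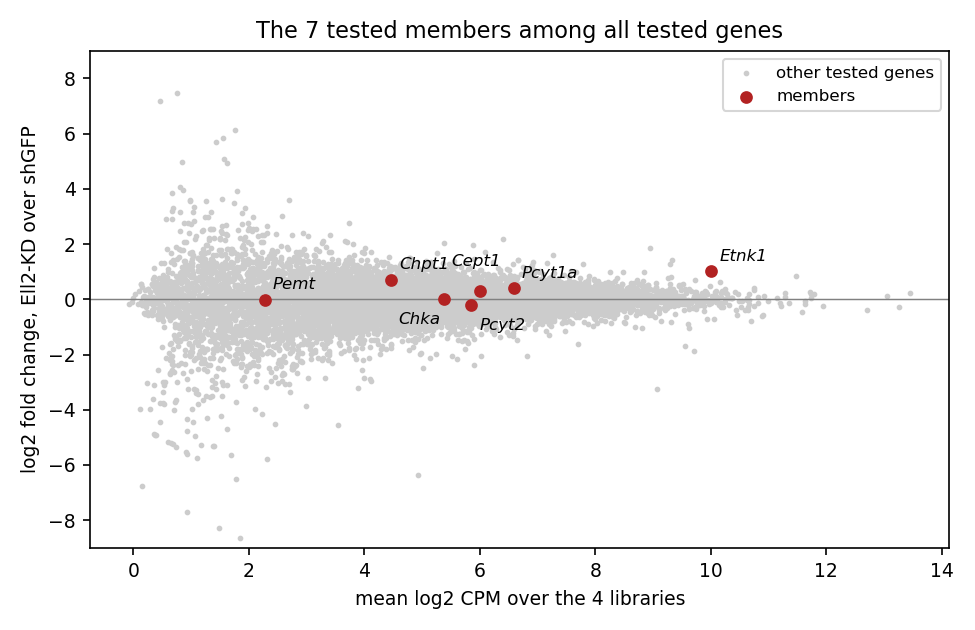
Log2 fold change of Ell2-KD over shGFP against mean log2 CPM; grey points are the tested genes and red points the 7 tested members. Etnk1 lies at a log2 change of 1.01 at the upper edge of the grey points of like abundance, and the other 6 lie within them.

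The rest of phospholipid metabolism was looked at through 9 lists of 73 genes, of which 71 were in the files and 52 were tested. None passed over all genes by edgeR's quasi-likelihood test, and 0 by the DESeq2 Wald test. At an unadjusted p under 0.05, none was higher and 2 were lower, Lpcat3 and Pld2. Of all genes tested, 2.57% were higher and 3.26% lower at that level. Log2 changes were positive for 30 and negative for 22, with a median of 0.07, where 49.9% of all genes tested were positive.

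Of the remaining Kennedy pathway enzymes, only Ept1 (now Selenoi), an ethanolamine phosphotransferase, was tested. It stood at 125 and 204 CPM in Ell2-KD and 151 and 154 CPM in shGFP, a log2 change of 0.11 ± 0.28 (SE) that was -0.28 without Ell2-KD replicate 2. Of 3 genes that make or use phosphatidylserine, the synthases Ptdss1 and Ptdss2 had positive changes, and Pisd, which turns phosphatidylserine into phosphatidylethanolamine, had a negative one, -0.24 on the log2 scale. Ptdss2, which makes phosphatidylserine from phosphatidylethanolamine, had 28.6 and 34.2 CPM in Ell2-KD and 21.8 and 19.8 CPM in shGFP (log2 change 0.59 ± 0.43, SE). Of 10 transporters of choline and ethanolamine, 8 were found by symbol and 2 were tested, Slc44a1 and Slc44a2. Flvcr1 and Flvcr2 were not found under the symbols searched, so their levels are not known here. Slc44a2, a choline transporter-like protein, had 149 and 31 counts in Ell2-KD and 48 and 19 counts in shGFP (log2 change 1.04 ± 0.80, SE). The more abundant Slc44a1 stood at 147 and 123 CPM in Ell2-KD and 123 and 151 CPM in shGFP (log2 change -0.01 ± 0.26, SE).

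Genes that supply phosphatidic acid and diacylglycerol were positive for 3 and negative for 7 of 10, with a median of -0.08. Lpin2, a phosphatidic acid phosphatase, had the smallest p among them, at 108 and 163 CPM in Ell2-KD and 95.3 and 88.1 CPM in shGFP. Among 7 acyl chain remodelling genes 5 were positive, with a median of 0.14. Lpcat3, which places polyunsaturated chains into lysophospholipids, had a negative change, at 18.0 and 9.95 CPM in Ell2-KD against 31.7 and 46.6 CPM in shGFP. Its log2 change was -1.46 ± 0.48 (SE; edgeR adjusted p = 0.699).

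Breakdown and head-group release genes were positive for 7 and negative for 7 of 14. Pld2, a phospholipase D that splits choline from phosphatidylcholine, had 2 and 3 counts in Ell2-KD and 59 and 23 counts in shGFP. Its log2 change was -3.73 ± 1.50 (SE; edgeR adjusted p = 0.807), and it rests on few counts. Among 7 genes of the CDP-diacylglycerol branch 5 were positive, and Ptpmt1, a phosphatase of mitochondrial cardiolipin synthesis, had the smallest p, at 36.4 and 29.3 CPM in Ell2-KD and 53.2 and 55.4 CPM in shGFP. Ether phospholipid genes were positive for 3 of 4, with Gnpat, a peroxisomal acyltransferase, at 92.3 and 90.7 CPM in Ell2-KD and 103 and 126 CPM in shGFP. Genes of methyl group supply and choline oxidation were positive for 3 of 4, and Mat2a, which makes the methyl donor S-adenosylmethionine, stood at 317 and 321 CPM in Ell2-KD and 205 and 262 CPM in shGFP. The edgeR adjusted p of these genes with the smallest p in each list lay between 0.699 and 0.999.

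**Figure D5:**
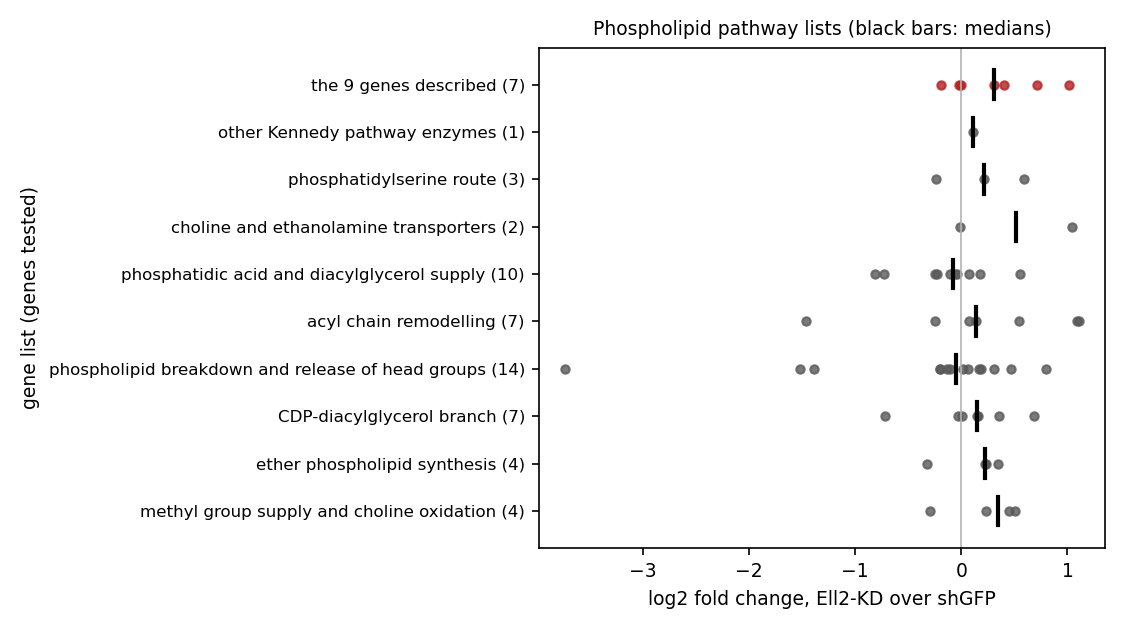
Log2 fold change of Ell2-KD over shGFP for each tested gene of the phospholipid lists (points) with the list median (black bars); the number tested stands in brackets. The points spread on both sides of 0 in most lists, and list medians run from -0.08 to 0.51, the highest being that of the 2 tested transporters.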

How the data were processed

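RNA of 4 cultures was read by SOLiD sequencing (per the labels' protocols). For each library the authors deposited read counts by gene symbol, 1 replicate per table according to the file headers; since values are whole and totals unequal, they were taken as unnormalised. SAMtools 0.1.11, HTSeq 0.5.3, DESeq 1.4.1 and the build mm9 appear in the submitters' processing notes; no aligner, annotation or strand setting does.

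EdgeR 4.0.16 in R 4.3.3 was used with filterByExpr (minimum count 10, minimum total 15), TMM scaling and a robust two-sided quasi-likelihood test with group as the only term. Benjamini-Hochberg adjustment ran over the 11027 genes tested, with a threshold of 0.05. Standard errors are the size of a log2 change over the square root of F. DESeq2 1.42.0 was an alternative. Scripts were tested on simulated data. Over 5 draws, 7.2% of 236 genes given a 2-fold change passed, and 57.5% of 473 given a 4-fold change. Not passing therefore does not show that a gene is unchanged. Exon lengths and overlaps came from GENCODE M21 (GRCm38) and promoters from RefSeq (GRCm38.p6); counts were joined to them by symbol only. Of the other pathway genes, 6 were found under an older symbol and 2 were not found.

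The members, the lists and the rule for named genes (all members, Ell2, the gene with the smallest p of each other list, and the 3 nearest profiles of 2 members) were chosen with earlier results of these data known. Library correlations of log2 CPM ran from 0.871 to 0.919, so no pair was a copy. A result on 1 cell type marker is not reported here.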

Additional observations from a re-analysis of the deposited data

How the results depend on the processing

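The log2 change of Etnk1 kept its sign under all 17 alternatives, as did those of Pcyt1a and Chpt1. Of 119 member values under the alternatives, 97 kept their direction and their side of the threshold, 19 turned sign and 3, all of Etnk1, newly passed. The replicate numbers give no shared animal, day or batch in the labels; deviations of same-numbered libraries correlated at 0.311, and with 2 pairs this does not establish a pairing. With the replicate block, 28 genes passed over all genes in place of 5, and 1 member, Etnk1. The number of genes passing was 2 with library totals only, 22 with no filter on low counts, 34 by the DESeq2 Wald test, 21 by the likelihood ratio test and 1 without robust settings, and no member passed in any of these. The cause of these differences was not tested.

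With 1 library left out and the same genes tested, 1 to 6 genes and no member passed; the lone library of a group is then assumed to vary like the other. With genes filtered anew on 3 libraries, a choice made after seeing the data like that of the robust settings, 14 to 142 genes passed (82 without Ell2-KD replicate 2), and 0 to 1 members, the 1 being Etnk1 without either Ell2-KD library. This filter also admits genes counted in a single library.

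The sign turned for Chka, Pcyt2, Pemt and Cept1 and for Ept1, which is not a member. Chka, at -0.01, was 0 with DESeq2 size factors, 0.07 without a filter, 0.02 by DESeq2, 0.05 without shGFP replicate 1 and 0.24 or, filtered anew, 0.25 without Ell2-KD replicate 2. Pcyt2 ranged from -0.52 without shGFP replicate 2 to 0.25 without shGFP replicate 1. Pemt was 0.14 without a filter, 0.05 by DESeq2, 0.12 without shGFP replicate 2 and 0.87 or, filtered anew, 0.88 without Ell2-KD replicate 2, against -3.84 without Ell2-KD replicate 1. Cept1 was -0.13 without shGFP replicate 1 and -0.33 or, filtered anew, -0.32 without Ell2-KD replicate 2, and up to 0.95 without shGFP replicate 2. Ept1 was -0.28 or, filtered anew, -0.27 without Ell2-KD replicate 2, and up to 0.43 without Ell2-KD replicate 1. Without the length correction, Cept1 made up 70.5% of Cept1 plus Chpt1 in Ell2-KD and 75.4% in shGFP. Pcyt1a then made up 66.9% of both CTP transferases in Ell2-KD and 58.1% in shGFP. Low counts limit what can be said of Etnk2 and Chkb, which had at most 7 counts in any library, the deepest included. For Chkb, how reads shared with Gm44502 were counted is also not known.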
